A study of Mus musculus and Rattus norvegicus with 2 samples.

Results

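Fragments listed under tRNA entries and ending in the bases CCA were described in small RNA of caput epididymal sperm, taken from the first stretch of the tube where sperm ripen after the testis. A fragment was counted when its matched entry was the Rfam family tRNA or a GenBank record typed tRNA and the read, turned to its own strand, ended in CCA. The rat library held 303 such sequences with 3333 reads, of 16074 tRNA-entry sequences with 8137060 reads. The mouse library held 280 with 3714 reads, of 14223 with 3027312 reads. Over both libraries these were 558 distinct sequences, of which 25 were listed in both, with 1024 reads in rat and 68 in mouse. Of the 558, 273 had 1 read over both libraries. The overlap of all listed sequences was not counted, so a low overlap is not shown to be particular to these fragments. The series holds 1 library per species, so no test across animals was possible. The rat library came from purified sperm of young adult Sprague Dawley rats of 450 g, and the mouse library from purified sperm of C57BL/6 mice aged 2 months. The labels give no treatment for either and do not say how many animals were used. In both, RNA of 18 to 45 nt was selected and sequenced, and the listed sequences run from 18 to 96 nt.

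A mature tRNA ends in CCA, a tail that is not encoded in the gene but added by an enzyme after the precursor has been trimmed, and the amino acid is attached to its last base. Short RNAs that reach this tail are called 3′ tRNA fragments, and those cut inside the T loop, near the 3′ end, form a recurrent group of them. Sperm of the epididymis are known for abundant 5′ tRNA fragments, cut at the anticodon loop, which lack the tail. Base 58, in the T loop, is 1-methyladenosine in many cytosolic tRNAs, and reverse transcriptase often misreads or stops at this base. In the sequences below the tail and base 58 are in capitals, positions follow the usual tRNA numbering, and each sequence is printed 5′ to 3′ as read.

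These sequences carry the results on true 3′ ends, and the 2 forms of glycine and aspartate fragments differ only at base 58.
Gly-TCC, 22 nt: tcgAttcccggccaacgcaCCA
Gly-TCC, 22 nt: tcgTttcccggccaacgcaCCA
Gly-GCC, 22 nt: tcgAttcccggccaatgcaCCA
Gly-GCC, 22 nt: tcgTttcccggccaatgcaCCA
Glu-CTC, 45 nt: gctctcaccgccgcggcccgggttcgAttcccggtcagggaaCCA
Selenocysteine, 32 nt: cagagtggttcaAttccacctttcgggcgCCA
Asp-GTC, 45 nt: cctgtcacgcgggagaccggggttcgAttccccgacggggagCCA
Asp-GTC, 45 nt: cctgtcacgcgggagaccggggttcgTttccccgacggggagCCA
Apart from the selenocysteine tRNA, named by its record, each named family is called by the anticodon read from its longer reads, since the entries give no anticodon. Families in which no anticodon could be called by the rule used are left unnamed. Shorter reads hold no anticodon and take the name from their shared end, so tRNAs with the same end cannot be told apart in them. Mouse Gly-GCC reads were at most 23 nt, and the anticodon of that family was read in rat only.

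Reads ending in CCA were a small share of tRNA reads in both libraries. They were 0.0410% of tRNA-entry reads in rat (95% interval 0.0396 to 0.0424) and 0.123% in mouse (0.119 to 0.127). The log2 ratio of rat over mouse was -1.58 (-1.65 to -1.51). Of all listed reads they were 0.0227% in rat and 0.0316% in mouse, a log2 ratio of -0.47 (-0.54 to -0.41). All intervals cover counting error only, because amplified reads carry no molecular identifiers here. In RNA pooled from many cells, fewer cells of a kind and fewer fragments per cell cannot be told apart. Pooled over all other classes, 1.09% of reads ended in CCA in rat and 0.872% in mouse. Single classes varied, and under miRNA entries it was 0.115% in rat and 0.0493% in mouse, in mouse less than under tRNA entries. Without the most abundant sequence of each library the first ratio was -0.89, and with each distinct sequence counted once it was -0.06. It turned to 0.14 (0.04 to 0.24) for reads with at most 1 mismatch and to 1.09 for all ends with a T arm under every entry class. The limit of 1 mismatch leaves out all 1437 rat reads placed at the tRNA 3′ terminus below. It also leaves 1366334 tRNA-entry reads in rat and 2097240 in mouse, so other reads are compared. The ratio of all listed reads turned to 0.05, 0.60 and 2.20 with at most 1 mismatch, with each sequence once and with all ends with a T arm.

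The lengths differed between the libraries. Fragments of 20 to 24 nt held 892 reads in rat, or 26.8% (25.3 to 28.3), and 171 reads in mouse, or 4.60% (3.95 to 5.33), a log2 ratio of 2.54 (2.30 to 2.78). Longer fragments held 2356 reads or 70.7% in rat and 3489 reads or 93.9% in mouse, and the shortest, of up to 19 nt, held 85 reads or 2.55% in rat and 54 reads or 1.45% in mouse. The most frequent length was 22 nt in rat, with 618 reads, and 33 nt in mouse, with 1276 reads. The ratio for 20 to 24 nt rests largely on 1 sequence of each library, since it was 0.69 without the most abundant fragment of each. Counts per sequence were low: 165 of the rat and 117 of the mouse sequences had 1 read, and the 10 leading ones held 65.9% of the fragments' reads in rat and 75.6% in mouse.

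The name "3′ fragments" fitted only part of these reads. A read was placed at the tRNA 3′ terminus when the bases of a T loop and a paired T stem lay at the fixed distance from its end, or when its last 15 bases matched such a read. By this rule 50 rat sequences with 1437 reads were terminal, or 43.1% (41.4 to 44.8), against 69 mouse sequences with 822 reads, or 22.1% (20.8 to 23.5). Reads whose T loop lay closer to their end were placed as ending at a CCA inside the T arm. They were 1436 in rat, or 43.1%, and 46 in mouse, or 1.24%. Some of them ended past the T stem but short of the terminus, such as a 37-nt sequence with 15 reads in rat and 0 in mouse. Reads whose first 14 bases lay in an abundant 5′ fragment were 183 in rat, or 5.49%, and 2451 in mouse, or 66.0% (64.4 to 67.5). Reads with rRNA sequence were 0 in rat, which allows a share of up to 0.0900%, and 133 in mouse. The remaining 277 rat and 262 mouse reads were placed elsewhere. Terminal reads alone were 0.0177% of tRNA-entry reads in rat and 0.0272% in mouse, a log2 ratio of -0.62 (-0.75 to -0.50), and of all listed reads their ratio turned to 0.49 (0.36 to 0.61).

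The shortest fragments were few and mostly not terminal. Of those up to 19 nt, 16 of 85 reads were terminal in rat and 15 of 54 in mouse. The leading rat one was the selenocysteine 3′ end ttccacctttcgggcgCCA, with 12 reads in rat and 3 in mouse. The next were cctgccacgcgggaggCCA and ctgccacgcgggaggCCA, with 10 reads each in rat and 0 in mouse, both placed elsewhere. In mouse the leading one, cagcctgtgttcttaaCCA, had 0 reads in rat and 11 in mouse and was placed elsewhere, and the next was the terminal atccgagtcacggcaCCA with 0 in rat and 6 in mouse. Of the 20 to 24 nt reads, 77.8% were terminal in rat (74.9 to 80.5) and 26.9% in mouse (20.4 to 34.2). Behind the leading 22-nt glycine fragment in rat, the 21-nt cgattcccggccaacgcaCCA had 54 reads in rat and 0 in mouse under tRNA entries. The 23-nt agtggtagaattctcgcctgCCA, from the 5′ part of a tRNA, had 31 in rat and 1 in mouse. The terminal 23-nt ttcgattcccggccaatgcaCCA had 0 reads under rat tRNA entries and 21 under mouse tRNA entries.

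**Figure D1:**
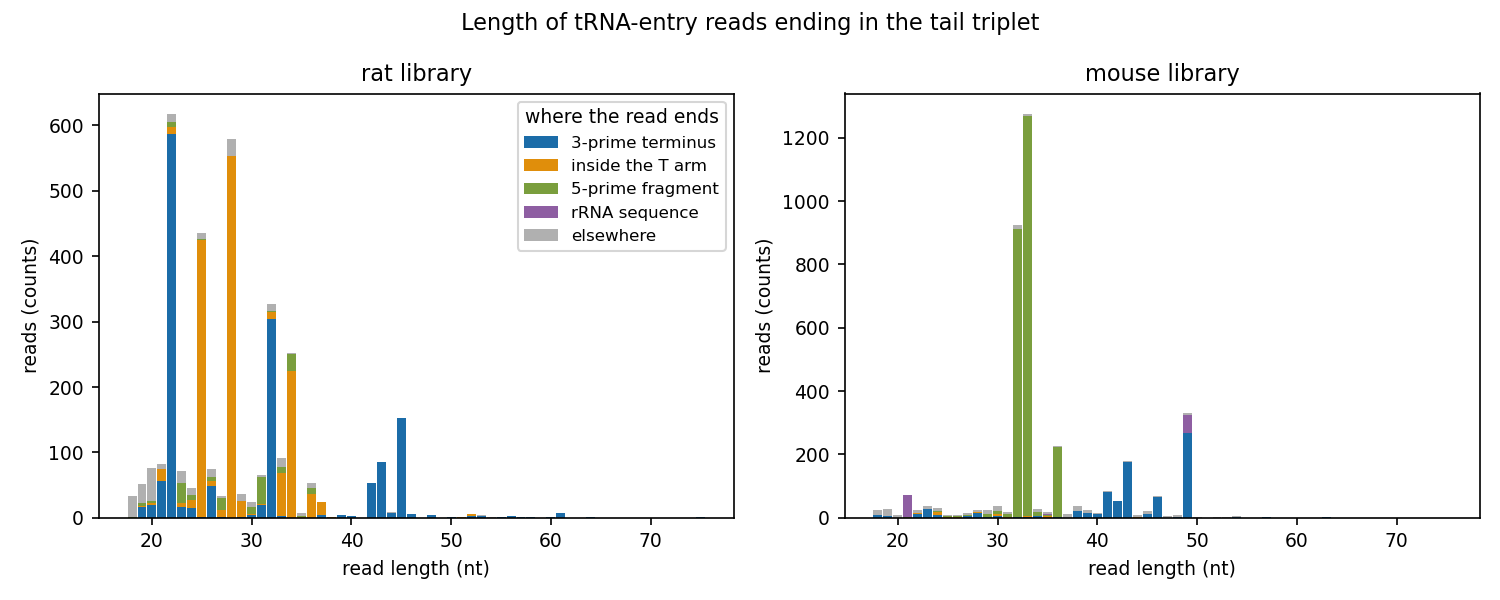
Reads (counts, vertical axis) of each length (nt, horizontal axis) among tRNA-entry reads ending in CCA, rat left and mouse right on separate scales, coloured by where the read ends on the tRNA. Terminal reads peak at 22 nt in rat with 587 reads and at 49 nt in mouse with 267, while the tallest mouse bar, at 33 nt, is 5′ fragments.

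The 2 fragments that led the mouse library were 5′ fragments listed with a last base unlike their entry. The 3 most abundant are shown with CCA in capitals because only their last 3 bases brought them into the count. They are called valine and glycine from general knowledge of these sequences, since the entries name none. The 33-nt and 32-nt reads end before the anticodon, whereas the 36-nt read runs through the anticodon GCC, just before its last base.
Valine 5′ fragment, 33 nt: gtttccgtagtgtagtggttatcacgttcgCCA
Glycine 5′ fragment, 32 nt: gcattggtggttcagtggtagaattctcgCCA
Glycine 5′ fragment, 36 nt: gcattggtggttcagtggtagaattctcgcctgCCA
The valine fragment had 0 reads in rat and 1230 in mouse, 33.1% of the mouse reads counted (31.6 to 34.7), and carried C7G and T33A against its entry. Here the entry's base comes first, the position is counted from 1 at the read's 5′ end, and the read's base comes last. The 32-nt glycine fragment had 0 reads in rat and 676 in mouse (18.2%) and carried T32A. Each was a minor form of an abundant 5′ fragment: the same read ending in thymine had 315375 reads in rat and 509872 in mouse for valine, and 387063 in rat and 508911 in mouse for glycine. Of all mouse reads of that length and start, 0.240% ended in adenine for valine and 0.132% for glycine. Guanine at that place was more frequent in mouse, with 1678 reads for valine and 1038 for glycine, and cytosine was rarer, with 267 and 289. In rat, 0 reads of these lengths and starts ended in any base but thymine, and the thymine forms listed there already differed from their entry at 2 bases, as did the valine thymine form in mouse. The 36-nt glycine fragment, with 0 reads in rat and 189 in mouse, ended in adenine in 98.4% of reads of its length and start. Its difference from the entry, C33G, was at the first anticodon base and not at the last base. A smaller mouse set, led by the 21-nt aagcgttggattgttcacCCA with 0 reads in rat and 70 in mouse, carried sequence also listed under rRNA entries, although its GenBank record is typed tRNA.

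In rat, the counted reads whose 3′ end lay inside the T arm came mostly from the selenocysteine tRNA, which inserts that amino acid at certain UGA codons. Only ends at a CCA enter the count, so a tRNA whose T arm has other bases at that place is left out. How often reads of any sequence ending in the T arm came from each tRNA was not counted. This tRNA held 1000 of the 1436 rat reads of the kind. The leading 2 are printed beside the read of the same start that runs on to the tail.
Ends inside the T arm, 28 nt: tgtttagcgacagagtggttcaTttCCA
Same start to the tail, 42 nt: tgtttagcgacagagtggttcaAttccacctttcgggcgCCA
Ends inside the T arm, 25 nt: ttagcgacagagtggttcaTttCCA
Same start to the tail, 39 nt: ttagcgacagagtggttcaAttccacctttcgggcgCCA
The 28-nt read had 485 reads in rat and 3 in mouse, and the 42-nt read 52 in rat and 1 in mouse. The 25-nt read had 376 reads in rat and 0 in mouse, and the 39-nt read 3 in rat and 0 in mouse. Both short reads end 14 bases before the mature 3′ end, at a CCA that belongs to the T stem. Against the record they carried A23T and A20T, counted from the read's own 5′ end, which is base 58 of the tRNA in both. The selenocysteine record as a whole held 1559 reads, 46.8% of all rat reads counted, of which 554 were terminal. Without the selenocysteine records the log2 ratio of the CCA share of tRNA reads was -2.48.

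Terminal reads fell into 8 families by their last 18 bases, bases 59 to 76 in a standard tRNA, with 3 families in rat, 7 in mouse and 2 in both. The overlap of all 18-base read ends was not counted beside it. With at least 100 reads over both libraries, 4 families remained, 3 higher and 1 lower in rat by at least 2-fold in their share of terminal reads. The same threshold was passed by 44.0% of all 18-base read ends in the higher direction and by 39.2% in the lower one, so most read ends of any class differed this much between the libraries. The median log2 ratio of the 4 families was 4.29, also with those at 0 put at their bound, and that of all read ends was 0.31.

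The glycine tRNA with anticodon TCC led the rat terminal reads. It had 717 reads in rat, 49.9% of terminal reads (47.3 to 52.5), and 17 in mouse, 2.07% (1.21 to 3.29), a log2 ratio of 4.55 (3.90 to 5.38). With families 1 base apart merged the ratio was 3.41, with 38 mouse reads, and for reads of up to 24 nt it was 2.79. In rat, 94.7% of its reads were 20 to 24 nt long, and the 22-nt adenine form had 586 reads, the most abundant counted fragment of that library. In mouse, 8 of its 17 reads were 20 to 24 nt and the other 9 were longer. The selenocysteine tRNA followed with 554 terminal reads in rat (38.6%) and 19 in mouse (2.31%), a log2 ratio of 4.02 (3.40 to 4.80). Most were long, 95.3% over 24 nt in rat, and the 32-nt read printed above had 303 reads in rat and 3 in mouse. The glutamate tRNA with anticodon CTC had 166 reads in rat (11.6%) and 0 in mouse. The 10 mouse reads of this end with 2 tail bases all had 2 mismatches already, so another unlike base would pass the limit. The 0 therefore gives no bound on the fold. The 45-nt read of this tRNA, which begins just before the anticodon loop, held 123 of the 166 rat reads, and 99.4% of the family was over 24 nt.

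In mouse, 688 of the 822 terminal reads came from the methionine tRNA with anticodon CAT. It had 0 reads in rat and 83.7% of terminal reads in mouse (81.0 to 86.2), at least 400.9-fold lower in rat by the same allowance. In rat this 3′ end was also listed with 0 reads after 0, 1 or 2 tail bases, under entries of any class. Of the mouse reads, 98.0% were over 24 nt. The smaller mouse families had no read under rat tRNA entries. They were an unnamed one ending in gtccctgttcgggcgCCA with 63 reads, glycine with anticodon GCC with 21, and 2 more unnamed ones with 9 and 5. Of these, the one ending in atccgagtcacggcaCCA had 9 reads, or 1.09% of the mouse terminal reads.

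What could be listed with the tail depended on the entry. All terminal reads in both libraries were under GenBank records and none under the Rfam tRNA family, although GenBank records held only 0.388% of tRNA-entry reads in rat and 7.68% in mouse. All 50 rat terminal sequences differed from their record at exactly 2 of the 3 tail bases, which uses up the 2 mismatches that the tables list at most. The leading glycine read, for example, carried G20C and G22A, and the 32-nt selenocysteine read carried G30C and G31C. In mouse, 50 of the 69 terminal sequences, with 751 of 822 reads, matched all 3 tail bases, since the records of the methionine family and of the unnamed family with 63 reads hold the tail. A further 6 mouse sequences differed at 1 tail base and 13 at 2. By construction, a tRNA whose entry ends in 3 unlike bases could not be listed with the whole tail under that entry.

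The same 18-base ends were far more frequent under entries of other classes. In rat, 9735 of 11172 reads with a family's end were outside tRNA entries, or 87.1% (86.5 to 87.8), and 9496 of these were under mRNA records. In mouse, 5925 of 6747 were outside, or 87.8% (87.0 to 88.6), and 5889 of these were under the Rfam family mir-1937. Counted over all entries, reads of 20 to 24 nt were 81.0% of these ends in rat (80.3 to 81.8) and 84.1% in mouse (83.2 to 85.0), a log2 ratio of -0.05 (-0.10 to -0.01). For terminal reads within tRNA entries the same log2 ratio was 3.11 (2.68 to 3.57).

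Glycine with anticodon GCC changed direction with the entries counted. Under tRNA entries it had 0 reads in rat and 21 in mouse, and over all entries 8684 in rat and 5446 in mouse. That is 592.6 reads per 1000000 listed reads (rpm) in rat and 463.1 rpm in mouse, a log2 ratio of 0.36 (0.31 to 0.41). Its 22-nt thymine form alone had 5479 reads in rat and 4394 in mouse, more than all fragments counted by the rule in either library. The adenine form had 1028 in rat and 636 in mouse. The TCC family reached 1725 reads or 117.7 rpm in rat and 481 reads or 40.9 rpm in mouse over all entries, and its log2 ratio was 1.52 (1.38 to 1.67). Its 22-nt adenine form had 586 reads in rat, under tRNA records, and 169 in mouse, under mir-1937, and its thymine form 746 in rat and 161 in mouse. The selenocysteine tRNA had a log2 ratio of 4.54 in rpm over all entries, with 565 reads in rat and 19 in mouse. Methionine CAT had 1 read in rat and 688 in mouse over all entries.

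**Figure D2:**
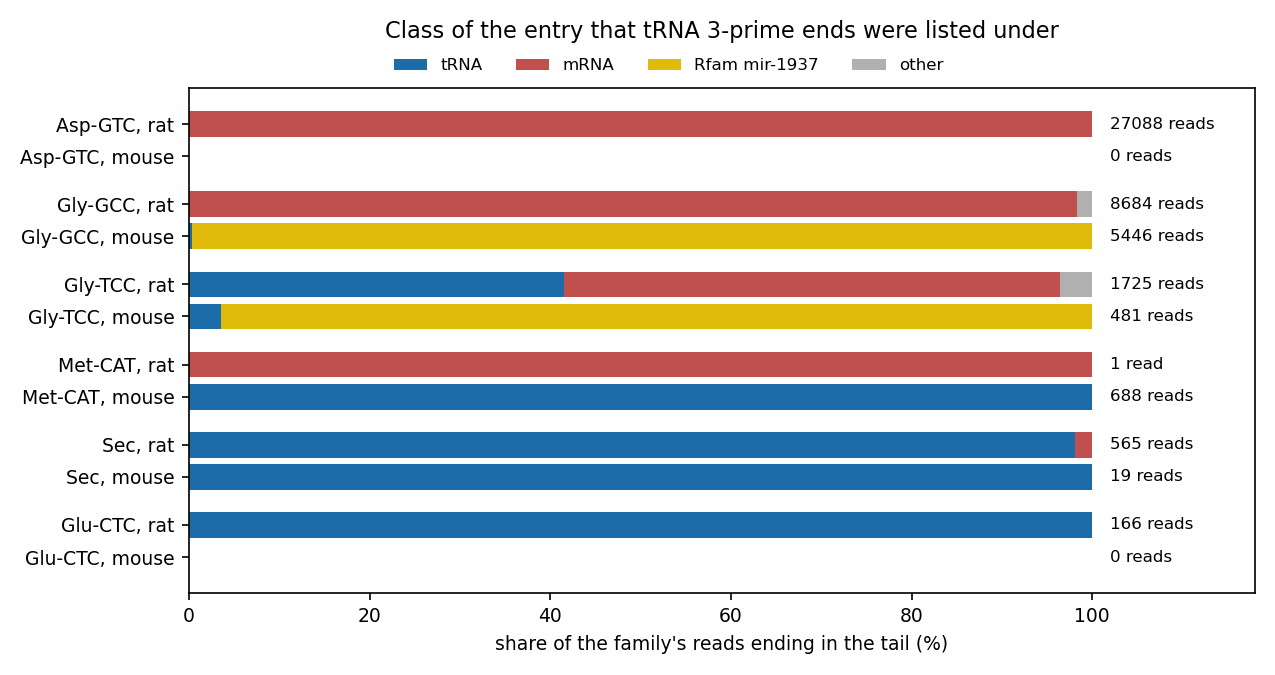
Share (%) of each family's reads ending in CCA that was listed under tRNA, mRNA, Rfam mir-1937 or other entries, with rat above mouse for each family and the number of reads at the right. Gly-GCC reads are almost all outside tRNA entries in both libraries, whereas Sec, the selenocysteine tRNA, is almost all within them.

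An aspartate tRNA with anticodon GTC had no read with this 3′ end and the whole tail under tRNA entries in either library, yet it was the most abundant of the tRNA 3′ ends recognised in the rat library. This family was singled out after its values were seen. It had 27088 reads or 1848.6 rpm in rat, all under mRNA records, and 0 in mouse. Its 45-nt adenine form held 17636 of the rat reads, the thymine form of that length 1276, and 99.6% of the family was over 24 nt. No bound on the fold is given, because another unlike base would have passed the mismatch limit in mouse, as described below. Both libraries listed this 3′ end without the full tail. In rat, 710 reads ended at the last encoded base, 1397 carried 1 tail base and 658 carried 2. In mouse, the same forms had 618, 1433 and 898 reads, all under tRNA entries. All 898 mouse reads with 2 tail bases already had 2 mismatches against their entry, so that another unlike base would pass the limit of the table. In rat, 22864 of the 27088 reads with the whole tail matched their mRNA record without a mismatch.

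Among reads that reached at least the last encoded base, the share with the whole tail was high for the glycine families. It was 96.6% for GCC in rat (96.2 to 96.9) and 95.7% in mouse (95.1 to 96.2), and 98.5% for TCC in rat (97.8 to 99.0) and 87.3% in mouse (84.2 to 90.0). For the selenocysteine tRNA it was 70.7% in rat (67.4 to 73.9) and 10.6% in mouse (6.51 to 16.1). Its mouse reads mostly ended after 0 tail bases, with 55 reads, or after 1, with 99. Of the reads with 1 tail base, 62.0% in rat and 97.0% in mouse had 2 mismatches against their entry. Methionine CAT carried the whole tail in 51.5% of mouse reads (48.7 to 54.2), and 575 more carried 2 tail bases. Glutamate CTC carried the whole tail in 31.6% of rat reads (27.7 to 35.8), and in mouse it was listed only with 2 tail bases, in 10 reads that all had 2 mismatches.

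**Figure D3:**
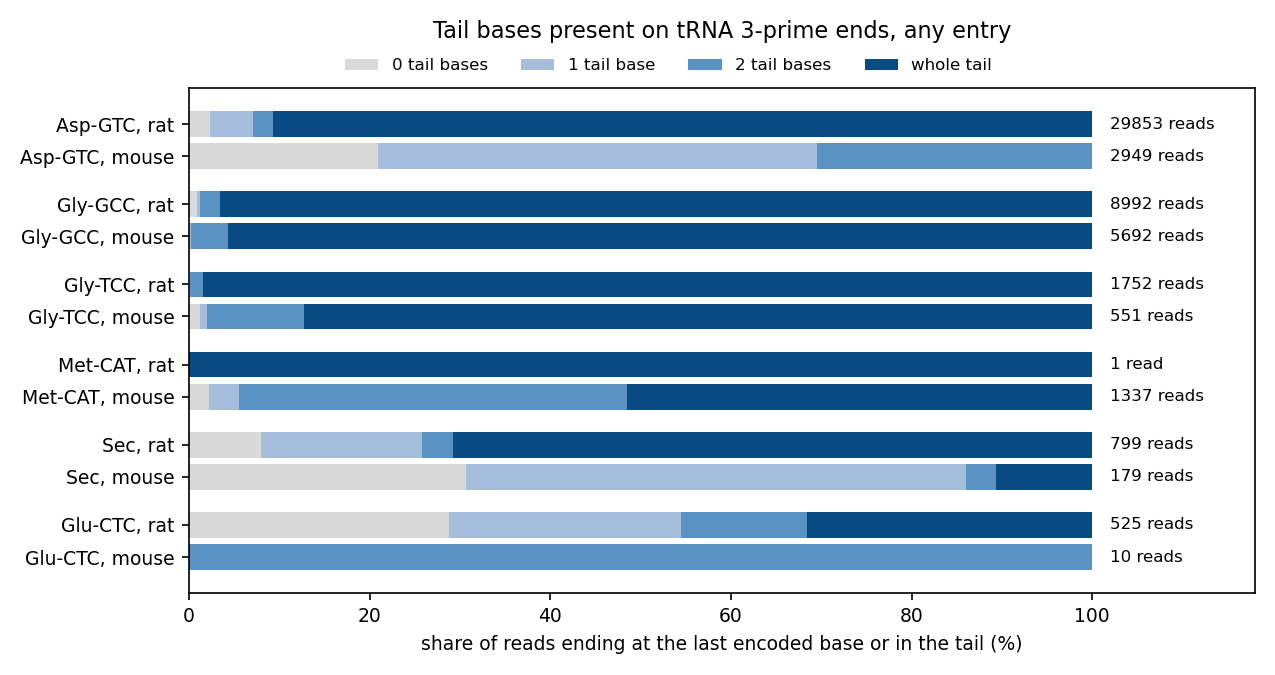
Share (%) of reads ending at the last encoded base or after 1, 2 or all 3 tail bases, over entries of any class, with rat above mouse for each family and the number of reads at the right. The whole tail prevails for both glycine families in both libraries, while Asp-GTC has 90.7% whole tails in rat and 0 of 2949 in mouse. The mouse Asp-GTC reads with 2 tail bases already had the 2 mismatches allowed, so this 0 sets no upper limit.

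Base 58 separated the reads by entry as well as by family. Among terminal reads under tRNA entries that covered it, 0 of 1425 in rat had a base other than adenine. The tail took the 2 mismatches allowed in all of these rat reads, so no other base could be listed. The 2 libraries cannot be compared in this value. In mouse, 65.9% of 810 had another base (62.5 to 69.2), with A58T in 467 reads and A58G in 67. A58T names adenine as the tRNA's base, its position and thymine as the base read. For methionine CAT, whose record matches the tail and so leaves room for a mismatch, A58T was in 66.8% of 674 mouse reads over 24 nt (63.1 to 70.3). Terminal rat reads had no mismatch left for base 58, whereas the rat selenocysteine reads that ended inside the T arm, with their CCA matched, had another base there in 91.5% of 1000 (89.6 to 93.2). Rat reads of other tRNAs that ended inside the T arm had another base less often, in 25.7% of 436 (21.6 to 30.1). In mouse, reads of any tRNA that ended there had another base in 17.4% of 46 (7.82 to 31.4). Of these 46, 3 were selenocysteine reads, all with A58T.

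The glycine TCC reads showed the split most plainly. Of its rat reads of 20 to 24 nt, 0 of 679 under tRNA entries carried A58T, against 940 of 945 under other entries. The tail took the 2 mismatches allowed under those tRNA entries, so A58T could not be listed there and the 0 was fixed in advance. Pooled over entries, A58T was in 57.9% of these rat reads (55.4 to 60.3) and in 53.5% of the mouse reads (48.6 to 58.3). For glycine GCC over all entries, A58T was in 83.9% of 7391 rat reads of 20 to 24 nt (83.1 to 84.7) and in 86.9% of 5227 mouse reads (86.0 to 87.8). Its longer rat reads carried it less, in 12.0% of 1154 (10.2 to 14.1). Aspartate GTC, also mostly long, had A58T in 6.30% of 26983 rat reads (6.01 to 6.60). Glycine TCC reads over 24 nt in rat carried it in 0 of 39, while methionine CAT reads over 24 nt in mouse carried it in 66.8% of 674. These sets differ in library and in the mismatches that their entries leave free, so the part of length was not tested.

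**Figure D4:**
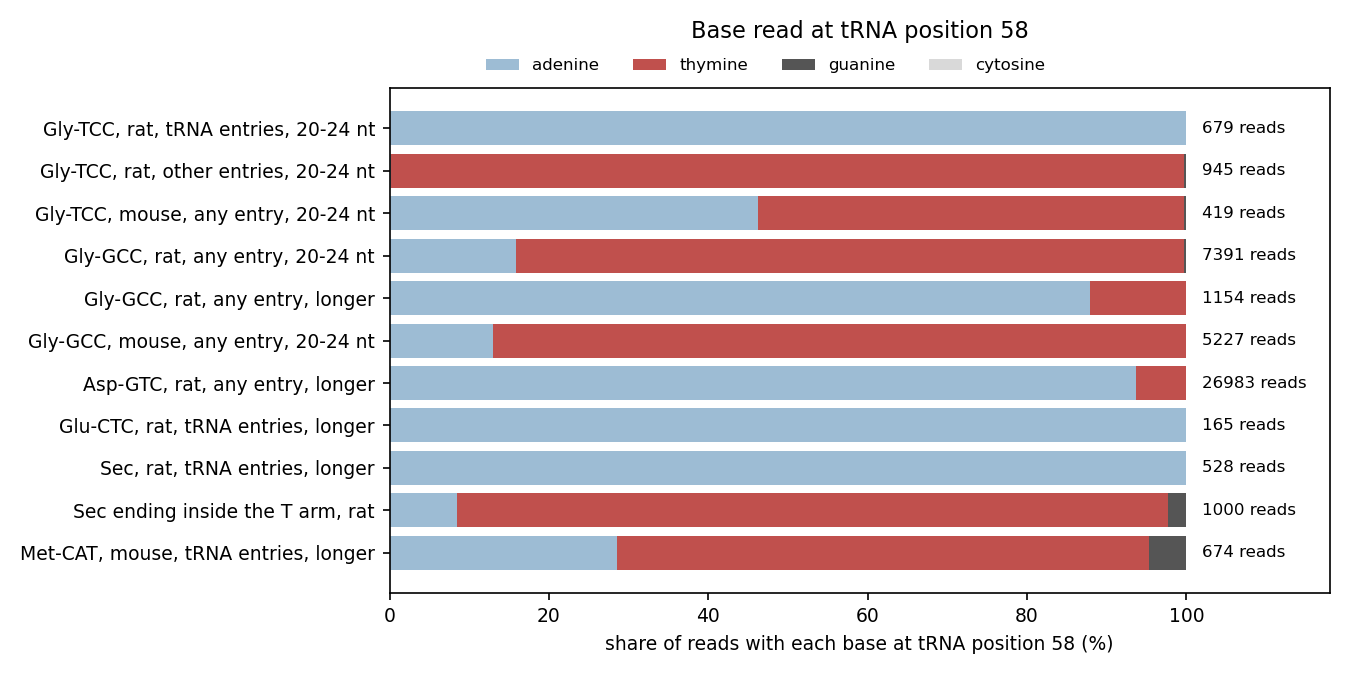
Share (%) of reads with adenine, thymine, guanine or cytosine at tRNA base 58, by family, library, entry class and length, with the number of reads at the right. Rat Gly-TCC reads of 20 to 24 nt are all adenine under tRNA entries, where the mismatch limit left no other base possible, and 99.5% thymine under other entries.

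Marker miRNAs of other cells differed between the libraries. Germ cell miRNAs (miR-34b, miR-34c and miR-449a, all detected) summed to 900.3 rpm in rat and 14.2 rpm in mouse. The 5 epithelial miRNAs of the miR-200 family summed to 338.6 rpm in rat and 206.6 rpm in mouse, and the smooth muscle miR-143 and miR-145 to 1854.3 rpm in rat and 846.2 rpm in mouse. Endothelial miR-126 was at 27.0 rpm in rat and 16.0 rpm in mouse. The 2 leukocyte miRNAs summed to 8.12 rpm in rat and 0.595 rpm in mouse, with miR-223 at 0 in mouse, and the 2 erythrocyte miRNAs to 5.53 rpm in rat and 0.340 rpm in mouse, with miR-144 at 0 in mouse. Their part in the differences above was not tested, and species, strain, age and library cannot be told apart.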

How the data were processed

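Each deposited table holds whole, unnormalised read counts per distinct sequence with its strand, mismatches and 1 matched entry, per the file headers. Bowtie 0.12.7 and the builds mm9 and rn5 are named, per the submitters' processing notes. How reads were trimmed is not given in the sources used here, and the unlisted reads were not analysed here. Libraries held 14652889 listed reads in rat and 11760708 in mouse. Minus-strand reads were turned. Members and lists were chosen with earlier results of these data known. Fragments were placed by T-arm bases (at most 1 of 6 unlike, T stem with at most 1 unpaired) or by their last 15 bases. 5′ fragments shared their first 14 bases with leading tRNA reads, and rRNA reads their first 18 bases with abundant rRNA-entry reads. Families were the last 18 bases, named from anticodons in reads of at least 44 nt. Named were the 3 leading fragments per length class and library, families with at least 1% of terminal reads, the 3 highest and lowest families over 100 reads, and the 2 leading internal fragments, of which some sequences are not reported here. Shares have Clopper-Pearson 95% intervals and ratios exact conditional binomial ones (SciPy 1.17.1, pseudocount 0.5 read for families). A count of 0 allows 3 counts. The placement and intervals were tested on simulated data. Coordinates of tRNA genes were not used here, and the sequences are those of the deposited reads.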

Additional observations from a re-analysis of the deposited data

Results flagged for a closer look

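Reads with a tRNA 3′ end and tail lay mostly outside the tRNA entries, in data that the count of CCA-ending tRNA-entry reads leaves out. In rat, 37228 reads under entries of other classes ended in an 18-base end with a T arm and the tail, 96.3% of 38665 such reads, and 36949 of them were under mRNA records. In mouse, 5933 did, 87.8% of 6755, of which 5895 were under the Rfam family mir-1937. Such reads were recognised after the data were seen.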

How the results depend on the processing

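No paired analysis was possible because each species has 1 library. The values that follow are log2 ratios, rat over mouse, with the share of tRNA-entry reads first, then of all listed reads, then the shares of fragments up to 19 nt, of 20 to 24 nt and longer. As reported they were -1.58, -0.47, 0.81, 2.54 and -0.41. For terminal fragments alone they were -0.62, 0.49, -0.71, 3.11 and -0.87. With at most 1 mismatch, which leaves out every rat terminal read, they were 0.14, 0.05, 1.80, 0.55 and -0.06. With each sequence counted once, the ratios that moved were -0.06, 0.60, 0.87 (20 to 24 nt) and -0.30 (longer). Without the leading fragment of each library those were -1.28, -0.17, 0.69 and -0.08. With the families' ends under every entry class they were -0.70, 0.41, -1.04, -0.05 and 0.54. Without the most abundant sequence of each library the first 2 were -0.89 and -0.68, and with reads of 18 to 45 nt -1.42 and -0.39. On the plus strand alone the shares up to 19 nt and of 20 to 24 nt were 2.04 and 2.94, and a bound at 20 nt gave 1.53 for the shortest. With 2 alternatives chosen after seeing the data, the 5 ratios were 1.09, 2.20, -2.68, -1.80 and 2.70 for all ends with a T arm under every entry class, and -2.48, -1.37, 1.60, 3.42 and -1.02 without the selenocysteine records. The direction of each of the 5 ratios therefore depended on which reads were counted. The cause was not tested, except that fewer or other reads enter by construction.

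Of the families, 3 were higher and 1 lower in rat. A minimum of 1000 reads left 0 and 0, a minimum of 20 gave 3 and 3, and reads of up to 24 nt gave 1 and 0. Every entry class gave 3 and 2, and all ends with a T arm gave 5 and 2. Counts were the same with the last 15 bases, a pseudocount of 5, rpm, and families 1 base apart merged. The strict motif left the terminal share at 43.1% in rat and 22.1% in mouse. Depth limits the smaller families, which hold under 100 reads each, and a tail missing from a table can reflect its mismatch limit.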
